A study of Mus musculus with 5 samples.

Results

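The regions described here are the ATRX ChIP-seq peaks that lie on unplaced and unlocalised scaffolds of the mouse genome. They were chosen by name alone, as the rows of the 4 deposited peak lists whose sequence name contains "_random" or starts with "chrUn". They number 781 of 651098 peaks in all 4 lists and lie on 40 scaffolds, 19 of them assigned to a chromosome without a position ("_random") and 21 assigned to none ("chrUn"). Peaks on assembled chromosomes (650304) and on chrM are not members.

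The series profiled ATRX in primary neurons cultured from C57BL6/J mouse embryos of day 15.5 to 17.5 and given lentivirus on day 5 in vitro. The question, by the series' title, is the timing at which synapses mature under a signalling route found in hominoids. There were 4 ChIP libraries, 1 per group. Of the 3 taken at day 14 in vitro (DIV14), the first carried TBC1D3, a gene of hominoids that mice lack, the second carried MICAL1-M1, a construct of the actin-oxidising enzyme MICAL1, and the third carried mCherry, a fluorescent protein, and was the control. The other mCherry library came from day 7 (DIV7), and the design text calls these neurons young. All groups shared the culture, the virus step and the ATRX antibody, and no source used here gives the promoter of the virus or says whether animals were pooled. The peak names inside the MICAL1-M1 list begin with M2, against the label M1, and the label is followed here. Peak lists hold no expression, so the neuronal identity of the cells could not be checked. With 1 library per group no value has a replicate error, no p-value was computed between conditions, and intervals are exact 95% binomial intervals that cover counting error only.

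A scaffold is a piece of assembled sequence that could not be joined to a chromosome, often because it holds repeats or duplicated sequence that also occurs elsewhere. Reads from all copies of such a repeat can collect on the few copies that were assembled, in the ChIP and in the input alike. ATRX is a chromatin remodeller that, with the histone chaperone DAXX, places a histone variant at telomeres, at pericentromeric repeats and at silenced retroviral elements, which is why repeat-rich sequence is of interest for it. No genome sequence was used here, so no sequence of these regions is printed and their repeat content was not tested.

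Scaffold peaks made up a small share of every list, and the share was highest at DIV7 and with TBC1D3. The TBC1D3 list held 303 scaffold peaks among 199059 (0.152%, interval 0.136 to 0.170). The MICAL1-M1 list held 52 among 141387 (0.0368%, 0.0275 to 0.0482). In mCherry at DIV14 there were 17 among 96670 (0.0176%, 0.0102 to 0.0282), and in mCherry at DIV7 there were 409 among 213982 (0.191%, 0.173 to 0.211). Among the intervals of these 4 shares, only those of MICAL1-M1 and mCherry at DIV14 overlap, and only slightly. Each interval covers counting error within 1 library, and neighbouring peaks of a scaffold are not independent, so this is no test between conditions. Without the scaffold chrUn_JH584304 the share was 0.0177% in MICAL1-M1 (0.0114 to 0.0261) and 0.0124% in mCherry at DIV14 (0.00641 to 0.0217), so most of the distance between them lay on that scaffold. The depth of the lists ran the other way: the genome background, that is the number of fragments the peak caller expects at any site, was 1.22 for TBC1D3, 2.61 for MICAL1-M1, 3.56 for mCherry at DIV14 and 1.28 for mCherry at DIV7. The 2 lists of lowest depth are thus the 2 with the most scaffold peaks, and the part of depth in the difference was not tested.

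Among the peaks that pass a correction for multiple testing, scaffolds weighed far more. A q of at most 0.05 was reached by 80 of the 303 TBC1D3 scaffold peaks (26.4%, 21.5 to 31.7), against 0.205% of all TBC1D3 peaks. With MICAL1-M1 it was 25 of 52 (48.1%, 34.0 to 62.4), against 0.463% of the whole list. In mCherry at DIV14 it was 2 of 17 (11.8%, 1.46 to 36.4), against 4.19% of the list, and the interval holds the list's own value. In mCherry at DIV7 it was 91 of 409 (22.2%, 18.3 to 26.6), against 0.236% of the list. On the 1 scaffold chrUn_JH584304 lay 22 of the 80 passing TBC1D3 peaks, 24 of 25 with MICAL1-M1, 1 of 2 in mCherry at DIV14 and 42 of 91 at DIV7. The intervals count neighbouring peaks of a scaffold as separate observations. Read the other way, scaffolds carried 19.6% of the q-passing peaks with TBC1D3 (15.8 to 23.7), 3.82% with MICAL1-M1 (2.48 to 5.58), 0.0494% in mCherry at DIV14 (0.00598 to 0.178) and 18.0% in mCherry at DIV7 (14.7 to 21.6). Of the 100 peaks with the lowest p in each list, 32 lay on scaffolds with TBC1D3, 24 with MICAL1-M1, 1 in mCherry at DIV14 and 35 in mCherry at DIV7. By the authors' fold enrichment, the ratio of ChIP pileup to local background, 20 of the 100 highest TBC1D3 peaks and 11 of the 100 highest DIV7 peaks were scaffold peaks, against 0 in MICAL1-M1 and 0 in mCherry at DIV14.

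**Figure D1:**
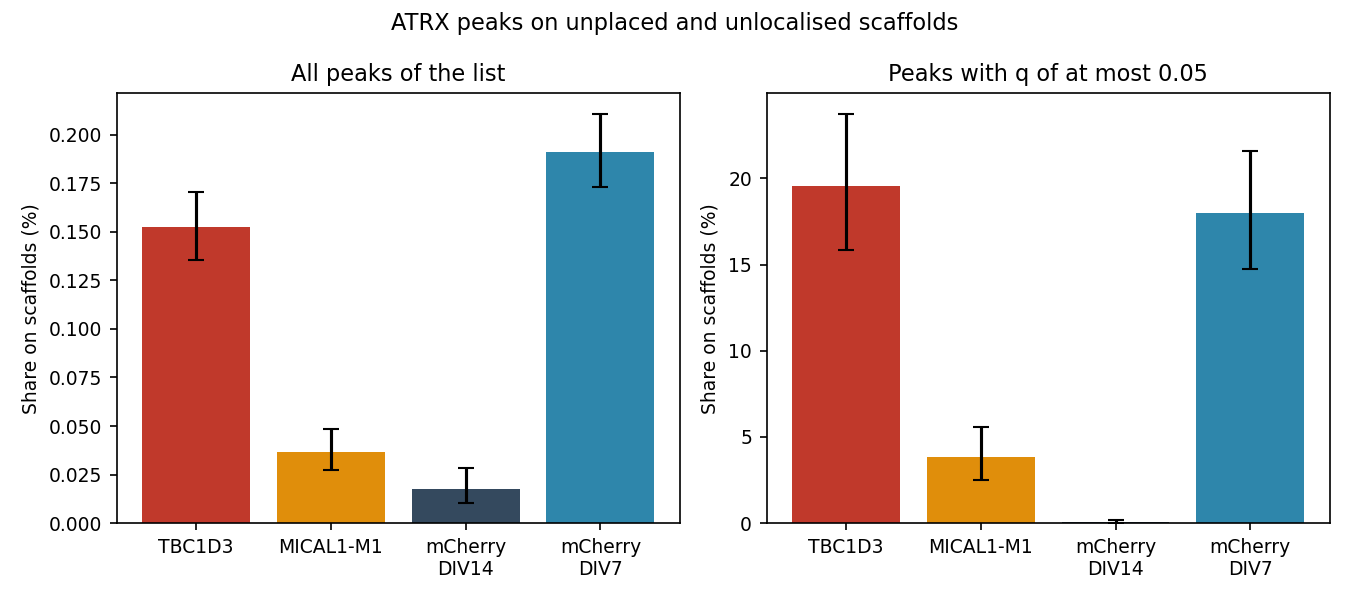
Share of peaks on scaffolds in each library (vertical axes, percent), for all peaks of the list (left) and for peaks with a q of at most 0.05 (right). Bars are shares with exact 95% binomial intervals; the right panel reaches 19.6% with TBC1D3 and 18.0% in mCherry at DIV7, against 3.82% with MICAL1-M1 and 0.0494% in mCherry at DIV14.

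The local background under scaffold peaks covered a wide range. Pileup and background at each summit were recovered from the deposited fold and p. A local background of at least 10 times the genome value was found at 46 of the 303 TBC1D3 scaffold peaks (15.2%, against 0.0854% of the list), at 27 of 52 with MICAL1-M1 (51.9%, against 0.0502%), at 5 of 17 in mCherry at DIV14 (29.4%, against 0.0279%) and at 95 of 409 in mCherry at DIV7 (23.2%, against 0.122%). Of these, chrUn_JH584304 held 15 with TBC1D3, 26 with MICAL1-M1, all 5 in mCherry at DIV14 and 56 at DIV7. A background under 2 times the genome value was found at 192, 23, 12 and 245 scaffold peaks in the same order of libraries. In TBC1D3 and mCherry at DIV7, the share of scaffold peaks that passed a q of 0.05 was higher in each higher class of background. Of the TBC1D3 peaks 5 of 192 passed under 2 times the genome value, 30 of 65 from 2 to 10 times and 45 of 46 at 10 times or more. With MICAL1-M1 the counts were 1 of 23, 0 of 2 and 24 of 27, so its middle class holds too few peaks to read. In mCherry at DIV7 they were 2 of 245, 10 of 69 and 79 of 95. On the assembled chromosomes, 98 of 124 TBC1D3 peaks, 27 of 39 MICAL1-M1 peaks and 120 of 167 DIV7 peaks of such high background passed. In the 2 lower classes there, 145 of 197362 and 86 of 1270 TBC1D3 peaks passed, and 246 of 212182 and 49 of 1222 DIV7 peaks. The order of the classes was thus not particular to scaffolds. At the same fold, a p from a Poisson tail is lower over a higher background, so part of this order is built into the p. In mCherry at DIV14, 1 of the 12 scaffold peaks under 2 times passed, as did 1 of the 5 scaffold peaks and 8 of the 16 assembled-chromosome peaks of high background, with no scaffold peak in between. Sites of such high background were rarer on the assembled chromosomes, at 0.0624% of TBC1D3 peaks, 0.0276% of MICAL1-M1 peaks, 0.0166% of mCherry DIV14 peaks and 0.0782% of mCherry DIV7 peaks.

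**Figure D2:**
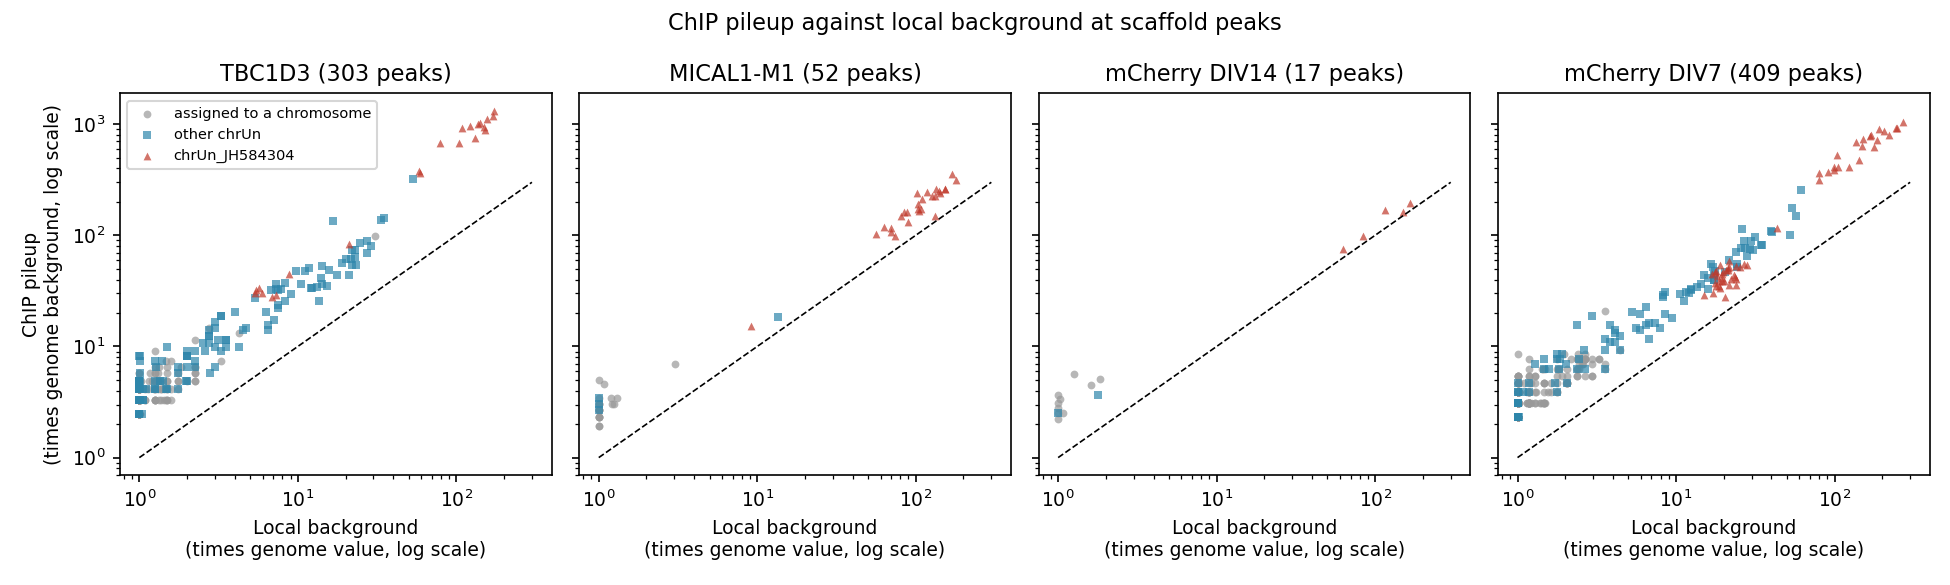
ChIP pileup at the summit (vertical axis) against the caller's local background (horizontal axis), both as multiples of the list's genome background on log scales, for each scaffold peak of the 4 libraries. The dashed line marks equality; grey circles are scaffolds assigned to a chromosome, blue squares chrUn scaffolds other than chrUn_JH584304, and red triangles chrUn_JH584304, whose highest TBC1D3 pileup is 1318 times the genome background over a local background of 173 times.

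Scaffold peaks had a larger median width than those on assembled chromosomes in all 4 lists, and a larger share of them was very wide. The median width was 395 bp with TBC1D3, 496 bp with MICAL1-M1, 602 bp with mCherry at DIV14 and 380 bp at DIV7, against 323, 404, 431 and 329 bp on the assembled chromosomes of the same lists. The difference was uneven over scaffolds. On those assigned to chromosomes 1, 4 and 5 the medians were 339, 292 and 322 bp with TBC1D3 and 342, 354 and 345 bp at DIV7. On chrUn_JH584304 they were 3925.5 and 1344.5 bp, and on other chrUn scaffolds 453.5 and 456 bp. Chromosome 4 scaffolds had medians of 553.5 bp with MICAL1-M1 and 764 bp in mCherry at DIV14, against 629 and 580 bp on chrUn_JH584304. A width of at least 1500 bp was reached by 23 of 303 scaffold peaks with TBC1D3 (7.59%, against 0.0633% of the list), 4 of 52 with MICAL1-M1 (7.69%, against 0.941%), 2 of 17 in mCherry at DIV14 (11.8%, against 2.53%) and 23 of 409 in mCherry at DIV7 (5.62%, against 0.0570%). The widest scaffold peak of the TBC1D3 list spanned 15925 bp of chrUn_JH584304.

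Peaks were spread unevenly over the 40 scaffolds. With TBC1D3 35 scaffolds had a peak, with MICAL1-M1 12, in mCherry at DIV14 8 and in mCherry at DIV7 39. Peaks of all 4 lists were found on 5 scaffolds, of 3 lists on 8, of 2 lists on 23 and of 1 list on 4. The 5 shared by all lists were chrUn_JH584304, chr4_GL456216_random, chr4_JH584293_random, chr4_JH584294_random and chr4_JH584295_random. Ranked by the mean over libraries of the share of scaffold peaks, the first 10 were chrUn_JH584304 (25.6%), chr4_GL456216_random (14%), chr1_GL456211_random (6.64%), chr5_JH584299_random (5.35%), chr4_JH584294_random (3.84%), chr4_JH584293_random (3.77%), chr1_GL456221_random (3.49%), chr1_GL456212_random (3.33%), chrUn_GL456370 (2.70%) and chr1_GL456210_random (2.66%). The mean weighs the 17 peaks of mCherry at DIV14 as much as the 409 at DIV7, so scaffolds of the short lists stand high in it. The other 30 scaffolds each had a mean of at most 2.32%.

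**Figure D3:**
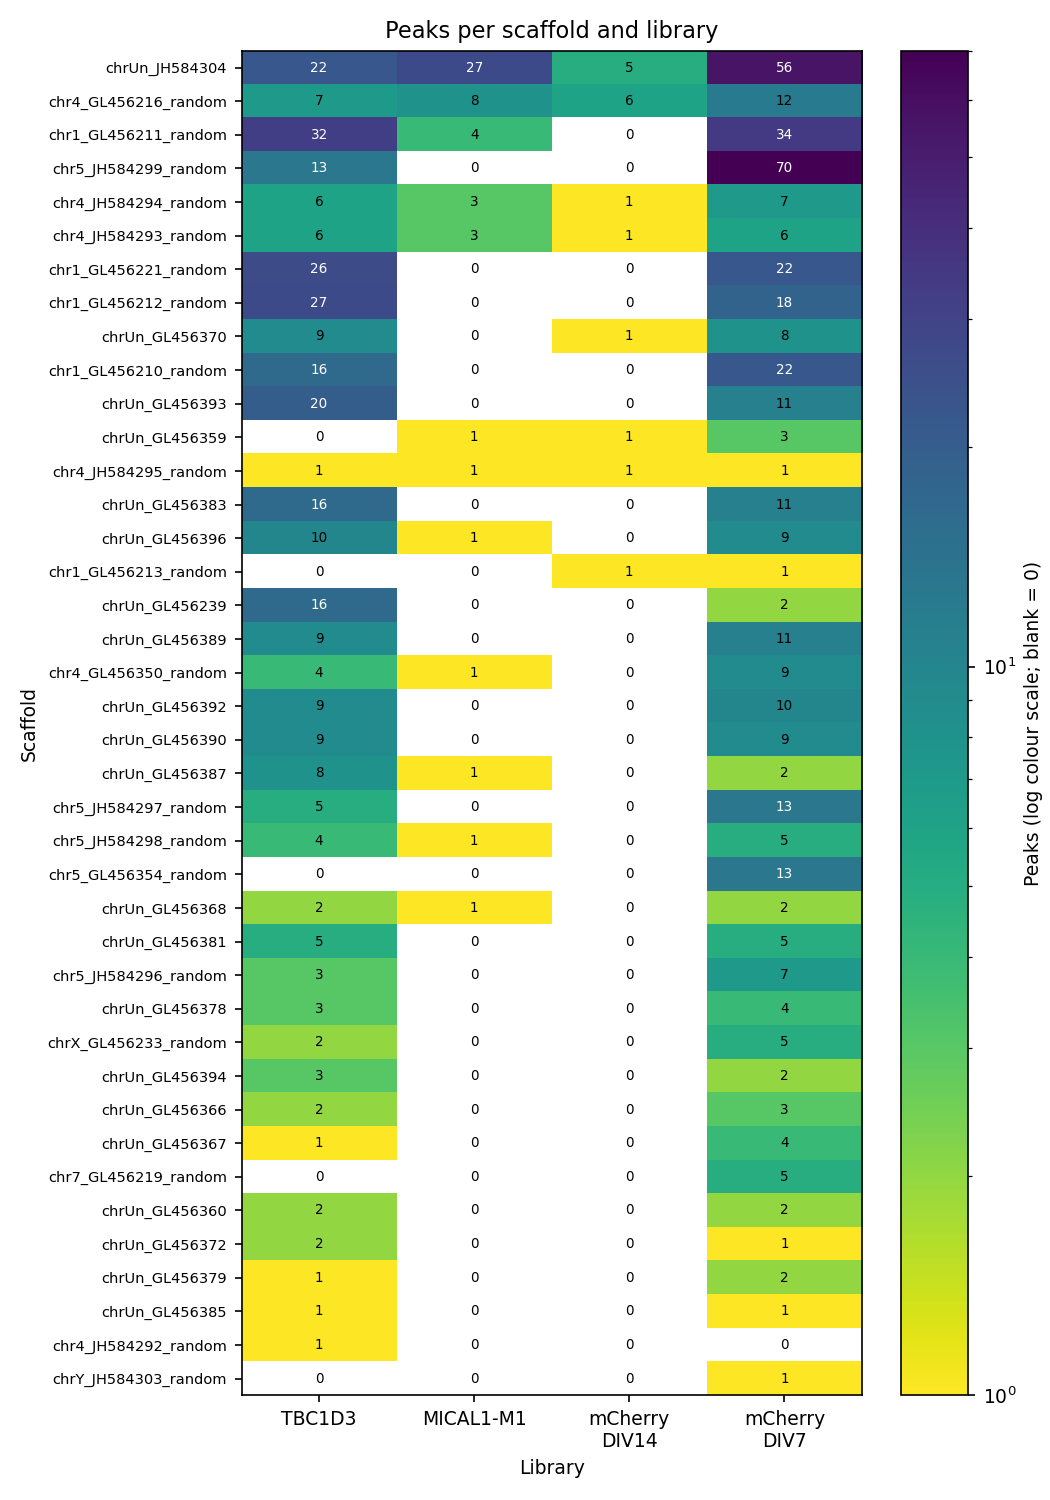
Number of peaks on each of the 40 scaffolds (rows, ordered by the mean share over libraries) in each of the 4 libraries (columns), with the count written in each cell and a log colour scale. The TBC1D3 and mCherry DIV7 columns are filled for 35 and 39 scaffolds, those of MICAL1-M1 and mCherry DIV14 for 12 and 8.

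The scaffold chrUn_JH584304 held 22 TBC1D3 peaks, 27 MICAL1-M1 peaks, 5 peaks of mCherry at DIV14 and 56 of mCherry at DIV7. Over all lists its peaks ran from position 52 to 114339 and formed 22 separate regions. The longest gap between them, 2266 bp from 65847 to 68114, was used to part the scaffold into 2 stretches. In the first stretch, TBC1D3 had 8 peaks that covered 95.2% of it, MICAL1-M1 had 1 peak, mCherry at DIV14 had none and mCherry at DIV7 had 34 peaks that covered 68.6%. In the second stretch the numbers were 14, 26, 5 and 22 peaks, which covered 88.8%, 43.0%, 5.64% and 79.1% of it. Because the TBC1D3 and DIV7 peaks fill most of the scaffold, an overlap with them there carries little information.

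The second stretch had the highest pileups of any scaffold in each list. With TBC1D3 the pileup was 440 to 1604 fragments (median 1139) over a local background of 70.8 to 211. With MICAL1-M1 it was 255 to 929 (median 477) over 146 to 470. In mCherry at DIV14 it was 268 to 697 (median 580) over 223 to 591, and in mCherry at DIV7 it was 408 to 1346 (median 852) over 102 to 347. Relative to each list's genome background, the local background was alike in the 3 DIV14 libraries. The TBC1D3 median was 134 times, the MICAL1-M1 median 107 and the mCherry DIV14 median 116, and the mCherry DIV7 median was 150 times. The background came from input DNA, of which the series has 1 sample, so this likeness is no separate observation on each library. The relative ChIP pileup differed more, with a median of 936 times in TBC1D3, 183 in MICAL1-M1, 163 in mCherry at DIV14 and 664 in mCherry at DIV7. The authors' folds follow from this and ran from 5.78 to 8.46 with TBC1D3, from 1.13 to 2.36 with MICAL1-M1, from 1.08 to 1.47 in mCherry at DIV14 and from 3.32 to 5.05 in mCherry at DIV7. The TBC1D3 range lies above the others and the DIV7 range next, and the other 2 overlap in part. No test applies, since each is 1 library. The genome background that divides the pileups was 1.22 with TBC1D3 and 1.28 at DIV7, against 2.61 with MICAL1-M1 and 3.56 in mCherry at DIV14. The 2 lists of lowest depth thus have the highest relative pileups and folds, and the part of depth was not tested. Of the peaks of this stretch 14 of 14, 24 of 26, 1 of 5 and 22 of 22 passed a q of 0.05. The medians rest on the sites called in each list, which are not the same sites.

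Sites called in more than 1 library give a closer view. The strongest peak of mCherry at DIV14 on this scaffold had its summit at 101166. The MICAL1-M1 summit 1 bp away had a pileup of 588 over a background of 345 (1.70-fold), mCherry at DIV14 had 606 over 413 (1.47-fold), and the DIV7 summit 14 bp away had 938 over 195 (4.78-fold). TBC1D3 had no summit of its own there, as 1 peak from 99757 to 104773 covered the site. At the control's summit at 113065, the TBC1D3 summit 9 bp away had 1144 over 183 (6.23-fold), the MICAL1-M1 summit 20 bp away had 680 over 402 (1.69-fold), mCherry at DIV14 had 580 over 535 (1.08-fold) and the DIV7 summit 21 bp away had 918 over 237 (3.86-fold). At this site, called in all 4 lists, the background was 150, 154, 150 and 185 times the genome value in TBC1D3, MICAL1-M1, mCherry DIV14 and mCherry DIV7, and the ChIP pileup was 940, 260, 163 and 715 times. The shared input and the unequal depth of the lists limit these values as they do those of the whole stretch.

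The first stretch was lower. With TBC1D3 its 8 peaks had folds of 3.65 to 5.27 over a background of 5.34 to 21.1 times the genome value. In mCherry at DIV7 its 34 peaks had folds of 1.36 to 2.79 over 15 to 43.3 times. The single MICAL1-M1 peak, from 59598 to 60043, had a fold of 1.65 over 9.13 times. All 8 TBC1D3 peaks and 20 of the 34 DIV7 peaks passed a q of 0.05.

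**Figure D4:**
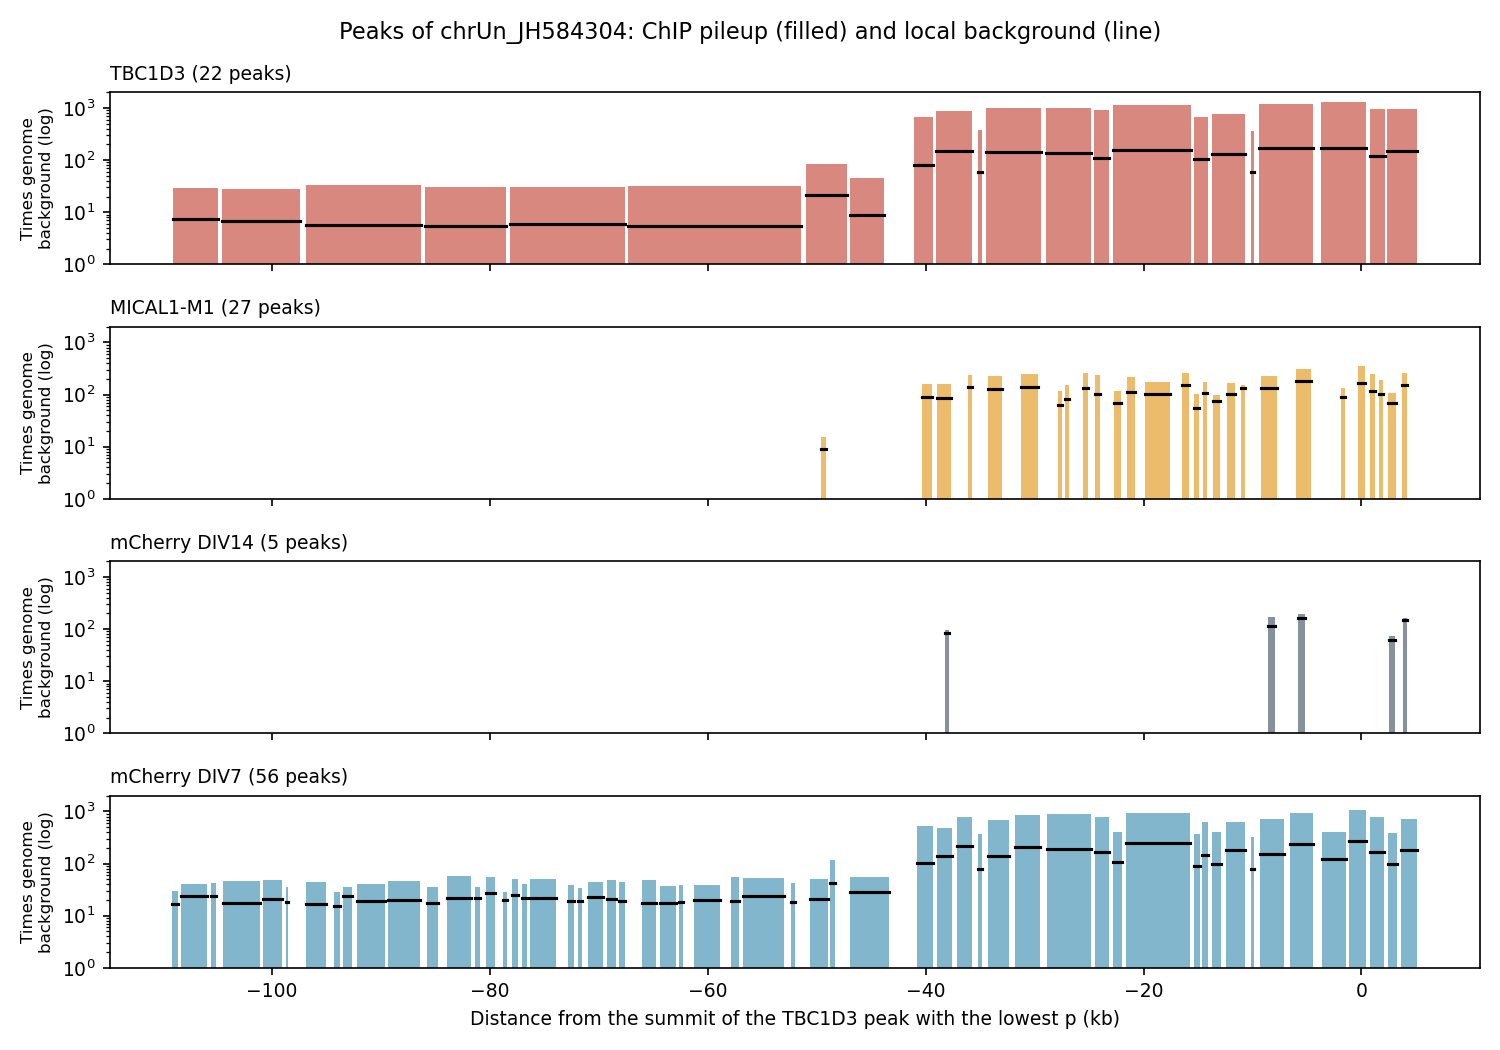
Peaks of chrUn_JH584304 in the 4 libraries, with distance in kb from the summit of the TBC1D3 peak of lowest p on the horizontal axis and multiples of the genome background on a log vertical axis. Filled boxes give each peak's extent and ChIP pileup and black lines the local background; the second stretch (right) holds 14, 26, 5 and 22 peaks in TBC1D3, MICAL1-M1, mCherry DIV14 and mCherry DIV7.

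Summits in the second stretch recurred at the same positions between lists. All 14 TBC1D3 summits had an mCherry DIV7 summit within 50 bp, 12 of the 14 had a MICAL1-M1 summit within 50 bp and 1 had a control summit. Of the 26 MICAL1-M1 summits, 19 had a DIV7 summit and 4 a control summit within 50 bp. Outside the control list, summits also recurred within a list at a similar distance. When distances between summits of the same list were counted in classes of 500 bp, the class from 25 to 25.5 kb held 24 pairs, more than any other class, and the next held 19. It held 6 TBC1D3 pairs, 10 MICAL1-M1 pairs, no pair of mCherry at DIV14 and 8 of mCherry at DIV7. As summits coincide between lists, the total of 24 counts some pairs of sites more than once. Within a list the lead was small. The next highest class held 4 pairs with TBC1D3, 9 with MICAL1-M1 and 7 at DIV7. The other 19 classes between 20 and 30 kb held 0.737, 2.89, 0 and 2.16 pairs on average. Median spacing was 25247 bp with TBC1D3, 25255 bp with MICAL1-M1 and 25252 bp for the DIV7 library. These pairs took in 12 of 14, 20 of 26 and 16 of 22 peaks of the stretch.

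Paired peaks were alike in some pairs and not in others. Widths agreed within 50 bp in 4 of the 6 TBC1D3 pairs, 4 of 10 with MICAL1-M1 and 3 of 8 at DIV7. Among the pairs that agreed, the TBC1D3 peaks with summits at 85069 and 110326, 25257 bp apart, were 1379 and 1380 bp wide and had pileups of 1134 and 1162. In mCherry at DIV7 the same pair, at 85067 and 110324, was 1344 and 1345 bp wide with pileups of 1013 and 1027. With MICAL1-M1 it lay at 85051 and 110308, with widths of 470 and 445 bp and pileups of 633 and 643. The narrow TBC1D3 peaks at 74179 and 99194 were 352 and 353 bp wide, with pileups of 461 and 440. Among the pairs that did not agree, the TBC1D3 peaks at 69603 and 94909 were 1763 and 1280 bp wide, with pileups of 823 and 825. The MICAL1-M1 peaks at 71015 and 96113 were 1243 and 651 bp wide, with pileups of 425 and 255. At DIV7 the peaks at 83945 and 109232 were 4079 and 1567 bp wide, with pileups of 1162 and 1346. The spacing class was chosen after the values were seen, and whether the sequence itself repeats at this distance was not tested.

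**Figure D5:**
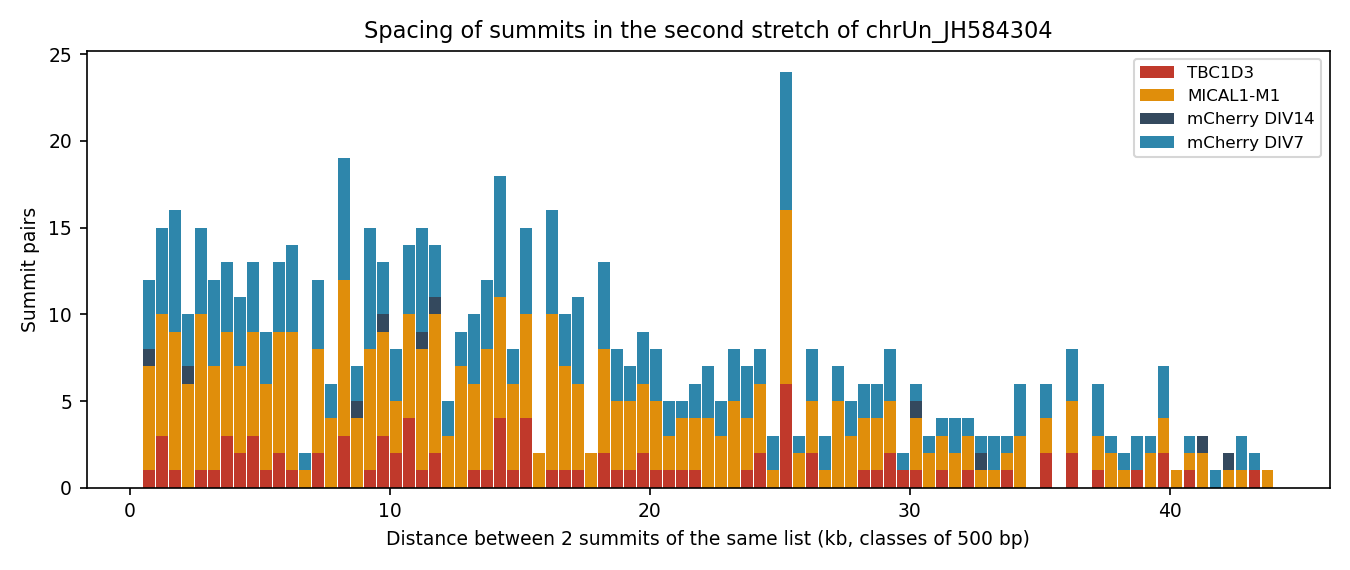
Number of summit pairs (vertical axis) by the distance between 2 summits of the same list in the second stretch of chrUn_JH584304 (horizontal axis, kb, classes of 500 bp), stacked by library. The class from 25 to 25.5 kb holds 24 pairs, of which 6 are TBC1D3, 10 MICAL1-M1 and 8 mCherry DIV7.

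Other unplaced scaffolds were occupied with TBC1D3 and at DIV7 and hardly in the other libraries. Outside chrUn_JH584304, chrUn scaffolds held 128 TBC1D3 peaks on 19 scaffolds, 4 MICAL1-M1 peaks, 2 peaks of mCherry at DIV14 and 102 peaks of mCherry at DIV7 on 20 scaffolds. Of these 54, 0, 0 and 46 passed a q of 0.05, against 0.205%, 0.463%, 4.19% and 0.236% of all peaks. The counts of 0 rest on only 4 MICAL1-M1 peaks and 2 of mCherry at DIV14. The scaffold chrUn_GL456390 had 9 TBC1D3 peaks and 9 DIV7 peaks, all of which passed, over a median background of 21.6 and 26.8 times the genome value. Likewise chrUn_GL456396 had 10 TBC1D3 and 9 DIV7 peaks that all passed, over 13 and 17.4 times, and 1 MICAL1-M1 peak that did not. The highest TBC1D3 fold outside chrUn_JH584304 was 7.76, on chrUn_GL456389 from 10393 to 10819, with a pileup of 163 over a background of 20.1. On chrUn_GL456392 the highest fold was 6.0 with TBC1D3 and 4.17 at DIV7.

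TBC1D3 and DIV7 peaks often overlapped on these scaffolds. Of the TBC1D3 peaks on chrUn scaffolds other than chrUn_JH584304, 61 of 128 (47.7%, 38.8 to 56.7) were overlapped by a DIV7 peak, and of the DIV7 peaks there 61 of 102 (59.8%, 49.6 to 69.4) by a TBC1D3 peak. Over the whole lists these shares were 9.36% and 8.73%. On chrUn_GL456390 8 of 9 TBC1D3 and 8 of 9 DIV7 peaks overlapped, on chrUn_GL456392 8 of 9 and 9 of 10, and on chrUn_GL456396 9 of 10 and 9 of 9. Peaks were dense on these scaffolds. TBC1D3 and DIV7 peaks covered 6545 and 6592 bp of chrUn_GL456390, where the last peak ended at 24618. On chrUn_GL456392 they covered 8135 and 6789 bp up to 23467, and on chrUn_GL456396 5927 and 5342 bp up to 21130. Overlap by 1 bp is likelier at such density, so the list-wide shares are not like for like. Overlap went with the background. Without chrUn_JH584304, peaks over at least 2 times the genome background overlapped in 53 of 89 TBC1D3 cases (59.6%) and 65 of 108 DIV7 cases (60.2%), and those under 2 times in 29 of 192 (15.1%) and 17 of 245 (6.94%). Every list was set against input DNA, of which the series has 1 sample, and the part of the input in these overlaps was not tested.

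On scaffolds assigned to chromosomes 1 and 5, most peaks belonged to the same 2 libraries. Those assigned to chromosome 1 held 101 TBC1D3 peaks, 4 of MICAL1-M1, 1 of mCherry at DIV14 and 97 of mCherry at DIV7. None passed a q of 0.05 in any list, against 0.205%, 0.463%, 4.19% and 0.236% of all peaks. Median fold was 2.26 with TBC1D3 and 2.26 at DIV7, close to the list medians of 2.26 and 2.19, and 14 of 101 TBC1D3 peaks (13.9%, 7.79 to 22.2) were overlapped at DIV7, an interval that holds the 9.36% of the whole list. On chromosome 5 scaffolds there were 25, 1, 0 and 108 peaks, again with none at a q of 0.05. The largest single count of any scaffold was 70 peaks of mCherry at DIV7 on chr5_JH584299_random, against 13 with TBC1D3 and none in MICAL1-M1 or mCherry at DIV14. These 70 had pileups of 3 to 7 fragments over a median background equal to the genome value, their last peak ended at 949664, and 3 of them (4.29%, 0.893 to 12) overlapped a TBC1D3 peak, an interval that holds the 8.73% of the whole DIV7 list. This scaffold reaches farther than any other here, and counts were not divided by scaffold length, since lengths were not used here. Scaffolds assigned to chromosomes 7, X and Y held 0, 2 and 0 TBC1D3 peaks and 5, 5 and 1 DIV7 peaks, and none in the other 2 libraries.

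Scaffolds assigned to chromosome 4 were the ones that mCherry at DIV14 occupied most, with 9 of its 17 scaffold peaks (52.9%). TBC1D3 had 25 peaks there (8.25% of its scaffold peaks), MICAL1-M1 16 (30.8%) and mCherry at DIV7 35 (8.56%). Of the 7 scaffold regions with a peak in all 4 lists, 4 lay on chromosome 4 scaffolds and 3 on chrUn_JH584304. They were 7 of 585 regions in all; 472 regions had a peak in 1 list, 93 in 2 and 13 in 3. The combination of TBC1D3 with mCherry at DIV7 alone made up 84 regions. These 2 lists also hold the most scaffold peaks, 303 and 409, against 52 with MICAL1-M1 and 17 in mCherry at DIV14.

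The short scaffold chr4_JH584295_random carried 1 peak in each list and nothing else. With TBC1D3 it ran from 39 to 1882 with a pileup of 11 (4.75-fold), with MICAL1-M1 from 105 to 1910 with a pileup of 13 (3.88-fold), in mCherry at DIV14 from 656 to 1898 with a pileup of 13 (3.07-fold) and in mCherry at DIV7 from 35 to 1928 with a pileup of 11 (5.25-fold). The summit lay at 508 in mCherry at DIV7, at 1719 with MICAL1-M1 and at 1809 in mCherry at DIV14. As the peaks fill most of the span from 35 to 1928, an overlap between lists there carries little information. The local background was 1.25 times the genome value in TBC1D3 and equal to it in the other 3 lists. A q of 0.05 was passed in every list except that of mCherry at DIV14. Within each list the fold ranked above 99.9%, 99.8%, 94.6% and 99.99% of peaks, and it was the highest scaffold fold of the MICAL1-M1 list and of the DIV7 list.

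On chr4_GL456216_random, 3 regions had a peak in all 4 libraries. The region from 31224 to 36412 held 1 TBC1D3 peak of 5189 bp (4.36-fold, pileup 18) and 1 MICAL1-M1 peak from 31919 to 35606 (2.14-fold, pileup 18). In mCherry at DIV14 it held 2 peaks, from 31689 to 33831 (3.85-fold, pileup 20) and from 34394 to 35542 (2.53-fold, pileup 16), and in mCherry at DIV7 1 peak from 31579 to 36254 (5.05-fold, pileup 27). The first mCherry DIV14 peak was its highest scaffold fold. A q of 0.05 was passed in TBC1D3, mCherry DIV14 and mCherry DIV7 and not in MICAL1-M1. The region from 15418 to 17123 reached a fold of 3.08 with TBC1D3, 3.41 with MICAL1-M1, 2.51 in mCherry at DIV14 and 2.19 in mCherry at DIV7, and none of these passed. The region from 28041 to 29987 reached 2.71, 2.21, 2.79 and 4.37, of which the DIV7 peak passed. TBC1D3 alone had a peak from 49120 to 49398, with a pileup of 121 over 30.9 times the genome background (3.16-fold).

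Genes could be set beside these peaks only by position. The gene table gives a chromosome and a position for genes on scaffolds but not the scaffold's name, and it also holds genes of other alternate sequences. In it 190 genes, 80 of them protein-coding, lie below position 2900000 of chromosomes 1, 4, 5, 7 or X, where no list has a peak on the assembled chromosome, or on no known chromosome. Of these, 27 have positions at which a scaffold of that chromosome, or a chrUn scaffold, had a peak within 1 kb in at least 3 lists, and for 8 of the 27 more than 1 scaffold fits. Cd99, which encodes a cell surface glycoprotein, is placed on chromosome 4 from 48 to 1475, where chr4_JH584295_random had its peak in all 4 lists. Gm2506, Gm34431, LOC100041504 and LOC100862470 are placed at overlapping positions and match the same peak, so position does not single out Cd99. Dhrsx, a member of the dehydrogenase and reductase family, is placed on chromosome 4 from 14351 to 36213. At those positions chr4_GL456216_random had 6 TBC1D3, 5 MICAL1-M1, 6 mCherry DIV14 and 6 mCherry DIV7 peaks within 1 kb, and chr4_JH584294_random had 0, 3, 1 and 2. Pisd-ps3, a transcribed pseudogene, is placed on no known chromosome from 52674 to 59689, where chrUn_JH584304 had 2, 1, 0 and 5 peaks. Csprs, on chromosome 1 from 111558 to 163011, matches positions with 7, 1, 0 and 4 peaks of chr1_GL456211_random. The rest carry symbols that begin with Gm or LOC, and no peak was assigned to a gene.

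Few scaffold peaks of TBC1D3 and DIV7 were overlapped by the control, whose list holds only 17 scaffold peaks that could overlap them. The shares for these longer lists are thus limited by list size. Over the whole lists the control's 96670 peaks stand against 199059 with TBC1D3 and 213982 at DIV7, so the list-wide shares are not like for like. A peak of mCherry at DIV14 overlapped 8 of 303 TBC1D3 scaffold peaks (2.64%, 1.15 to 5.14, against 6.33% over the list) and 12 of 52 MICAL1-M1 scaffold peaks (23.1%, 12.5 to 36.8, against 15.8%). It also overlapped 12 of 409 DIV7 scaffold peaks (2.93%, 1.53 to 5.07, against 5.65%). Seen from mCherry at DIV14, 10 of its 17 scaffold peaks were overlapped by TBC1D3 (58.8%, 32.9 to 81.6, against 12.7% over the list), 14 by MICAL1-M1 (82.4%, 56.6 to 96.2, against 22.5%) and 13 by mCherry at DIV7 (76.5%, 50.1 to 93.2, against 12.2%). Of its 12 peaks outside chrUn_JH584304, 5, 9 and 8 were overlapped.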

How the data were processed

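Chromatin was immunoprecipitated with an ATRX antibody from 4 neuron cultures and sequenced from both ends, with input DNA as background, per the labels' protocols; the input sample was not analysed here. The submitters' processing notes name MACS 1.4.2, Bowtie 1.3.0, ChIPseeker 1.26.2 and SAMtools 1.9; no source used here states what each did or which genome build was used. The deposited lists, 1 per library and not pooled, have 10 columns without a header in the narrowPeak layout, which MACS 1.4.2 does not write, so the caller is uncertain. The deposited score is the −log10 p times 10, rounded down. The deposited fold is a ratio, taken as (pileup + 1) over (background + 1). The deposited −log10 columns hold a p-value without correction and a q-value; the lists reach an uncorrected p of 0.05. The deposited summit offset, another column, gave summit positions. Positions are 1-based in the files' own build, whose scaffold names are those of GRCm38.

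Pileup and background were solved from fold and p under a Poisson tail; 99.989% to 99.997% of rows of each list agreed within 0.001 in log10 p. The 9 scaffold rows outside it, all on chrUn_JH584304, were kept. The method and the overlap count were tested on simulated data. Overlap means at least 1 bp unless stated. The genome background is the commonest background of a list. Read totals are unknown, so these values are the only measure of depth. Python 3.11.15, pandas 2.3.3 and SciPy 1.17.1 were used. Scaffolds were named as the 10 with the highest mean share over libraries, peaks as the 5 highest folds per library and the regions found in all 4 lists, and genes by positions with peaks in at least 3 lists; other scaffolds and sites named were chosen after their values were seen. Members, lists and comparisons were chosen with earlier results of these data known.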

Additional observations from a re-analysis of the deposited data

How the results depend on the processing

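Values are for TBC1D3, MICAL1-M1, mCherry DIV14 and mCherry DIV7 in that order unless named. The share of peaks on scaffolds was 19.6%, 3.82%, 0.0494% and 18.0% among peaks with a q of at most 0.05, where TBC1D3 and DIV7 changed order. At a p of at most 0.01 it moved to 0.181% in TBC1D3, 0.0570% in MICAL1-M1 and 0.332% in DIV7, and with lists of equal size (96670 peaks) to 0.215% in TBC1D3 and 0.254% in DIV7. Without chrUn_JH584304 it was 0.0177% in MICAL1-M1 and 0.165% in DIV7, and with peaks within 1 kb merged 0.118% in TBC1D3 and 0.155% in DIV7. Under a background of 2 times the genome value, a setting chosen after seeing the data, it was 0.0972% in TBC1D3, 0.0164% in MICAL1-M1 and 0.115% in DIV7. Except at a q of 0.05, the order of the 4 shares was the same under these settings. With an overlap of at least 50% of both peaks, 0.330% of TBC1D3 and 0.978% of DIV7 scaffold peaks were overlapped by the control. At a q of at most 0.05, 13, 2, 2 and 12 scaffolds had a peak. The cause of these moves was not tested. No paired analysis was possible because each group has 1 library. Under 2 times the genome background, scaffold peaks rested on 3 to 12 fragments in TBC1D3 and 3 to 11 in DIV7; the effect of depth was not tested.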
